A study of Mus musculus with 12 samples.

Results

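The 10 genes described here encode the receptor tyrosine kinase MET, its ligand hepatocyte growth factor (HGF), the related pair MST1R and MST1, and the proteases and inhibitors that control how these ligands are activated. They were Met, Hgf, Spint1, Spint2, Hgfac, St14, Mst1, Mst1r, Plau and Plat, taken by their symbols from the deposited table of read counts. Each symbol was found once, so that the set comprised 10 of the 49315 genes in the table. The genes were chosen for their roles, but with earlier results of these data known.

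Gene expression had been measured by bulk RNA sequencing of dorsal root ganglia (DRG), the clusters of sensory neurons and their glia beside the spinal cord. One genotype was Postn-Cre(+);Nf2 flox/flox (Nf2 mice, n = 6), and the other carried Fak1 flox/flox in addition to these alleles (DKO mice, n = 6). All 12 mice were 10 months old, and the labels give 3 males and 3 females per genotype. The comparison asks how loss of Fak, the gene annotated as Ptk2, alters expression in ganglia in which Nf2 is also deleted. Both genotypes carried the Cre and the floxed Nf2 alleles, and no mouse without these alleles was analysed here. The Postn promoter directs the Cre to Schwann cells and their precursors. Several ganglia of a mouse made up its library, 1 library per mouse, and in such mixed tissue fewer cells of a type and less RNA per cell cannot be told apart. The strain background of the individual mice was not given in the sources used here.

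MET is activated when HGF binds to it, and its signalling through adaptor proteins, the MAP kinase ERK and the kinase AKT drives the growth, movement and survival of cells. HGF is secreted as an inactive single chain, which serine proteases such as HGFAC and matriptase (the product of St14) cut into an active pair of chains. The membrane inhibitors HAI-1 and HAI-2, encoded by Spint1 and Spint2, block those proteases. In peripheral nerve, MET and HGF are known for their part in the response of Schwann cells and axons to injury and in nerve sheath tumours.

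The short stretches of coding sequence that carry this control are shown first, because the values below concern genes that act on them. In Hgf the cut falls after the codon in capitals, in exon 14 at chr5:16611843-16611869, and in Mst1 after the codon in capitals in exon 13 at chr9:108083635-108083661. Both are on the plus strand of GRCm38 and were read from GENCODE M21 transcripts, as were the stretches that follow.
Hgf activation site: acaaaacaactgCGGgttgtaaatggc
Mst1 activation site: agtaataaacttCGTgtggtgggaggc
In the kinase domains of both receptors, 2 neighbouring tyrosine codons, in capitals, mark the activation loop. They lie in exon 20 of Met at chr6:17563609-17563638 and in exon 17 of Mst1r at chr9:107917254-107917283, on the plus strand.
Met activation loop: tacgataaagagTACTATagtgtccacaac
Mst1r activation loop: ctagacaaggaaTACTACagtgttcgccag
HGF and MST1 resemble serine proteases but lack protease activity. At the position of the catalytic serine the working proteases Plau and Plat carry a serine codon, at chr14:20842280-20842282 and chr8:22781954-22781956, whereas Hgf and Mst1 carry a tyrosine codon, at chr5:16618832-16618834 and chr9:108084780-108084782. These codons, all on the plus strand, are in capitals below.
Plau catalytic position: tgcaagggcgatTCTggaggaccgctt
Plat catalytic position: tgccagggtgacTCGggaggccctctg
Hgf same position: tgtgagggagatTATggtggcccactc
Mst1 same position: tgtgagggtgacTACgggggcccactt

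The libraries held 21129191 to 41250329 counts, and levels are given as counts scaled to the library total (CPM). Sox10, a transcription factor of Schwann cells and satellite glia, was present in every mouse, with 5408 to 15218 counts per library. Ptk2 had 70.0 ± 3.60 CPM in the Nf2 group and 64.0 ± 10.4 CPM in the DKO group (mean ± SD, n = 6), so that whole-gene counts did not separate the genotypes. Nf2 itself had 128 ± 12.3 and 118 ± 11.2 CPM. Mouse 702, an Nf2 mouse labelled male, had 496 CPM of Xist and 0.525 CPM of Ddx3y, as in the 6 libraries labelled female (428 to 637 CPM of Xist). Mice 649 (Nf2) and 887 (DKO) had the highest share of mitochondrial counts, 4.454% and 5.603%, against 1.987% to 3.151% in the other 10 libraries.

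Among the 10 genes, Met was lower in DKO than in Nf2 mice and was the only one past the threshold, an edgeR adjusted p of 0.05 over all genes tested. Over all 18295 genes, 172 (0.94%) passed it, 68 higher and 104 lower in DKO mice. Of the 10 genes, 9 had enough counts to be tested and Hgfac had not. Of these 9, 4 had a positive and 5 a negative log2 fold change, with a median of -0.05 beside a median of 0.0047 over all genes tested. At an unadjusted p under 0.05 were Met, Spint1, Spint2, Plau and Plat, 5 of 9 genes, where 14.9% of all genes tested were. The CPM of the genotypes did not overlap for Met, which was so for 1.95% of all genes tested. In an exact permutation test over the 924 splits of the 12 mice, the smallest possible p is 0.00216, which 356 genes shared, so that no gene could fall below 0.111 after adjustment over all genes.

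**Figure D1:**
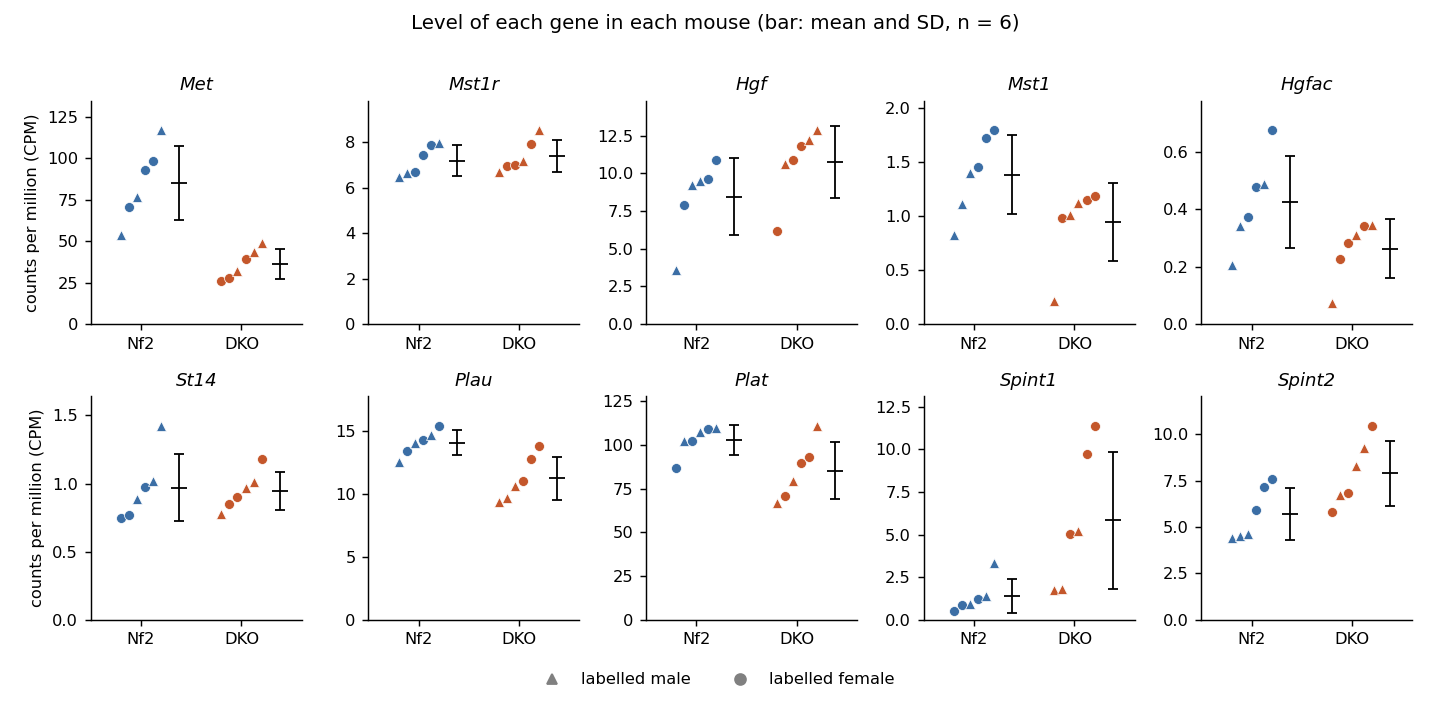
Level of each of the 10 genes in each of the 12 mice, in CPM on linear axes from 0, with triangles for mice labelled male, circles for mice labelled female, and bars for the mean and SD of each genotype (n = 6). Met is the only gene whose 6 DKO mice all lie below the 6 Nf2 mice, and Spint1 shows a wide spread among DKO mice, 1.77 to 11.4 CPM.

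Of the receptors, Met (ENSMUSG00000009376, chr6:17463800-17573980, plus strand) had a lowest value of 53.7, a median of 84.8 and a highest value of 117 CPM in Nf2 mice. In DKO mice these were 25.9, 35.7 and 48.8 CPM. Every DKO mouse was below every Nf2 mouse, and the gap between the nearest mice of the genotypes lay between the DKO mouse 915 and the Nf2 mouse 649. The means of 85.0 ± 22.4 and 36.3 ± 9.14 CPM (SD, n = 6) gave a log2 fold change of -1.25 ± 0.19 (SE; edgeR adjusted p of 0.00838). The call held in 12 of 12 fits that left out 1 mouse, with log2 fold changes of -1.35 to -1.13 and edgeR adjusted p values of 0.00468 to 0.0272. Among mice labelled male alone the log2 fold change was -1.03, with an edgeR adjusted p of 0.347.

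Mst1r (ENSMUSG00000032584, chr9:107906873-107920383, plus strand), which encodes the MST1 receptor RON, had 6.45, 7.07 and 7.96 CPM as its lowest, median and highest value in Nf2 mice. In DKO mice it had 6.69, 7.09 and 8.53 CPM. The genotypes lay within almost the same range, and 4 of 6 Nf2 mice fell inside that of the DKO mice. Its log2 fold change was 0.02 ± 0.09 (SE; edgeR adjusted p of 0.945), and its sign changed when some mice were left out. Met had a DKO-to-Nf2 ratio of 0.421 by the edgeR fit, and a difference between the 2 receptors was not itself tested.

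Of the ligands, Hgf (ENSMUSG00000028864, chr5:16553495-16620152, plus strand) had 3.62, 9.36 and 10.9 CPM as lowest, median and highest value in Nf2 mice. In DKO mice it had 6.20, 11.3 and 12.9 CPM. The genotypes overlapped, and the lowest mouse of each, 649 and 887, stood apart from the other 5 of its genotype. The fitted log2 fold change was 0.33 ± 0.22 (SE; edgeR adjusted p of 0.540). It was 0.17 without mouse 649, 0.43 without mouse 887 and 0.28 without both, with edgeR adjusted p values of 0.677, 0.280 and 0.163. The two-sided exact permutation p was 0.190 with all mice and 0.0130 without mouse 887, the lowest of the 12 fits that left out 1 mouse.

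Mst1 (ENSMUSG00000032591, chr9:108080436-108085003, plus strand), the ligand also known as macrophage-stimulating protein, was scarce, with 9 to 49 counts per library. Its lowest, median and highest values were 0.825, 1.43 and 1.80 CPM in the Nf2 group and 0.218, 1.07 and 1.18 CPM in the DKO group. All 6 DKO mice were below the Nf2 mean, but 5 of them lay within the Nf2 range and 2 Nf2 mice lay within the DKO range. The log2 fold change of -0.59 ± 0.33 (SE) had an edgeR adjusted p of 0.441, and the two-sided exact permutation p was 0.0628. Without mouse 914 the log2 fold change was -0.37, and with 1 mouse left out the exact permutation p ran from 0.0152, without mouse 702, to 0.136.

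Levels can be compared between genes only after division by exon length, as length-scaled shares of the library (TPM). In Nf2 mice Met had 41.4 ± 12.5 and Hgf 4.41 ± 1.43 TPM (SD, n = 6). The ratio of Met to Hgf in TPM was 7.58, 8.98 and 13.9 in Nf2 mice (lowest, median, highest) and 2.40, 3.34 and 3.91 in DKO mice. These ranges did not overlap, and the ratio contains the fall of Met already given. The ratio of Mst1r to Mst1 was 1.87 to 3.53 in the Nf2 group and 2.67 to 14.9 in the DKO group, which overlapped.

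**Figure D2:**
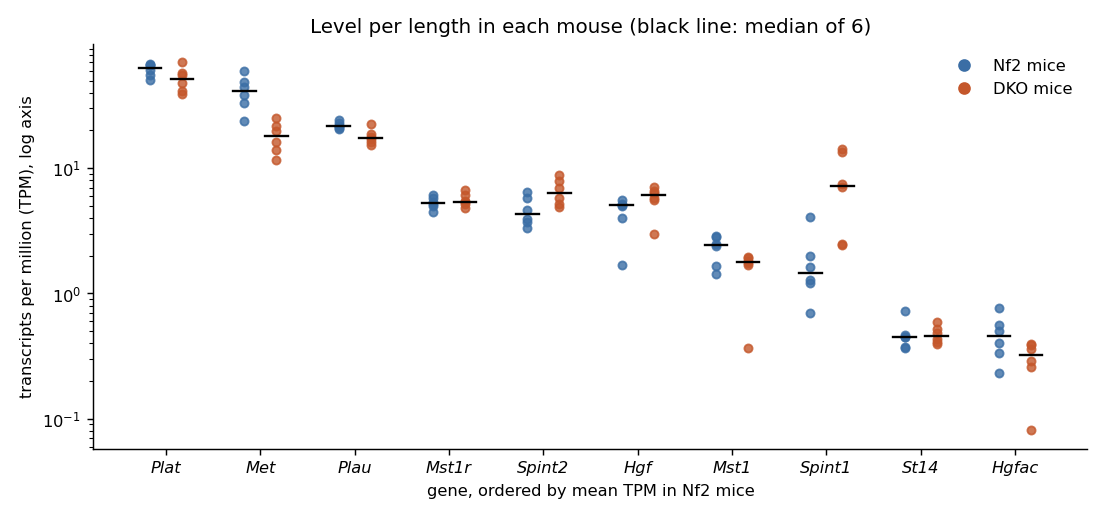
Level per exon length of the 10 genes, in TPM on a log axis, with a point for each of the 6 Nf2 (blue) and 6 DKO (orange) mice and a line at their median. Plat has the highest mean in both genotypes, 61.2 and 51.9 TPM, and St14 and Hgfac have the lowest, below 1 TPM.

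The order of the TPM levels in Nf2 mice was Plat, Met, Plau, Mst1r, Spint2, Hgf, Mst1, Spint1, St14 and Hgfac, from 61.2 ± 7.28 to 0.466 ± 0.186 TPM (SD, n = 6). Of the neighbours in that order, Plau and Mst1r alone had ranges that did not overlap, at 22.0 ± 1.36 and 5.32 ± 0.586 TPM. In DKO mice the order was Plat, Met, Plau, Spint1, Spint2, Hgf, Mst1r, Mst1, St14 and Hgfac. There Met, at 18.0 ± 4.99 TPM, overlapped with Plau, at 17.9 ± 2.52 TPM, and Spint1 stood in the fourth place at 7.87 ± 5.14 TPM with a range that overlapped that of Spint2.

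Of the proteases that can activate HGF, Hgfac (ENSMUSG00000029102, chr5:35041509-35048461, plus strand), made chiefly by liver, had 3 to 20 counts per library. Its lowest, median and highest values were 0.205, 0.425 and 0.676 CPM in the Nf2 group and 0.0727, 0.297 and 0.345 CPM in the DKO group. The genotypes overlapped, and Hgfac did not pass the filter on low counts that precedes edgeR. The two-sided exact permutation p of the log2(CPM + 4) difference was 0.0563, and with 1 mouse left out it ran from 0.00433, without mouse 884, to 0.121, without mouse 914.

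St14 (ENSMUSG00000031995, chr9:31089402-31131853, minus strand), the gene of the epithelial protease matriptase, had 18 to 40 counts per library. Nf2 mice had 0.744, 0.930 and 1.43 CPM as lowest, median and highest value, and DKO mice had 0.777, 0.935 and 1.18 CPM. The medians were nearly equal and the DKO range lay inside the Nf2 range. Its log2 fold change was -0.05 ± 0.20 (SE; edgeR adjusted p of 0.937), and it changed sign without mouse 702 and without mouse 917.

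Plau and Plat encode the plasminogen activators of urokinase and tissue type, which turn plasminogen into plasmin. Plau (ENSMUSG00000021822, chr14:20836660-20843385, plus strand) had 12.5, 14.1 and 15.4 CPM in the Nf2 group and 9.37, 10.8 and 13.8 CPM in the DKO group. All 6 DKO mice were below the Nf2 mean, and 2 Nf2 mice lay within the DKO range. The fitted log2 fold change of -0.34 ± 0.11 (SE) had an edgeR adjusted p of 0.141. It passed the threshold with DESeq2 (adjusted p of 0.0449) and with limma voom and quality weights (adjusted p of 0.0262). These fits called 831 and 521 genes in all, where edgeR called 172.

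Plat (ENSMUSG00000031538, chr8:22757727-22782844, plus strand) had 86.9, 105 and 109.6 CPM as lowest, median and highest value in Nf2 mice. In DKO mice it had 67.0, 84.4 and 111 CPM. The DKO mice spread more widely, and 1 of them, the highest of all 12 mice, exceeded every Nf2 mouse. The log2 fold change was -0.29 ± 0.11 (SE; edgeR adjusted p of 0.216). The ratio of Plat to Plau in TPM had a median of 2.80 in the Nf2 group and 2.77 in the DKO group.

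**Figure D3:**
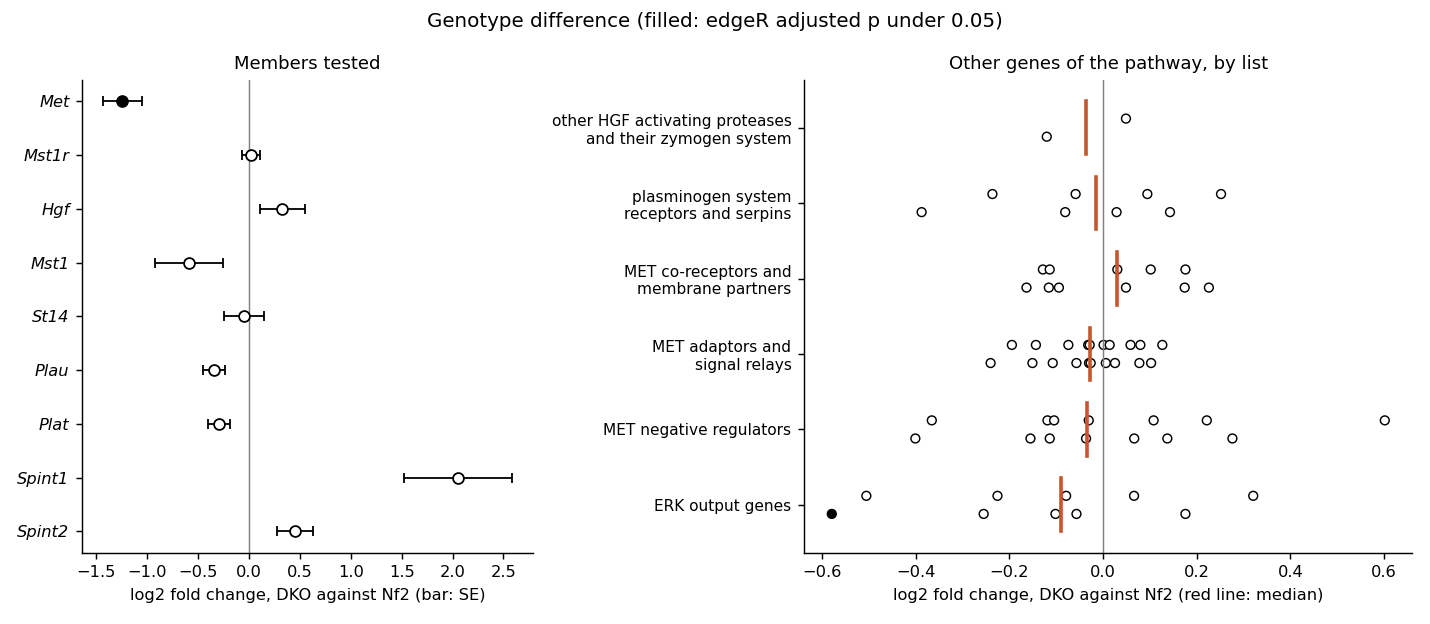
Log2 fold change of DKO against Nf2 mice, on the left for the 9 genes tested, with bars for the standard error from edgeR, and on the right for the genes of the 6 pathway lists, a point per gene with a line at each list's median; filled points have an edgeR adjusted p under 0.05. On the left Met at -1.25 is the only filled point and Spint1 at 2.05 has the widest bar, 0.53; on the right Dusp6 at -0.58 is the only filled point.

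Of the inhibitors, Spint1 (ENSMUSG00000027315, chr2:119237362-119249527, plus strand) had 14 to 257 counts per library. Its lowest, median and highest values were 0.523, 1.09 and 3.36 CPM in the Nf2 group and 1.77, 5.15 and 11.4 CPM in the DKO group. All 6 DKO mice were above the Nf2 mean of 1.39 CPM, and mouse 649 alone among Nf2 mice reached into the DKO range. Its log2 fold change of 2.05 ± 0.53 (SE) had an edgeR adjusted p of 0.0904, and the two-sided exact permutation p was 0.0152. Leaving out mouse 649 gave 2.53 with an edgeR adjusted p of 0.0374, the only one of the 12 such fits past the threshold. Over all mice DESeq2 also passed it, with an adjusted p of 0.00322, but limma voom with quality weights did not. DESeq2 called 831 genes in all, where edgeR called 172. By labelled sex the log2 fold change was 3.30 among females (edgeR adjusted p of 0.0229) and 0.58 among males (edgeR adjusted p of 0.719).

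Spint1 is an epithelial gene in most tissues, and the levels of epithelial markers in these libraries were uneven. Of 9 epithelial markers 5 were tested, 0 passed the edgeR threshold and 1 had an unadjusted p under 0.05. Epcam had 3 to 18, Krt5 0 to 5, Krt14 1 to 8 and Cldn7 0 to 7 counts per library, whereas Cdh1, which glia of the ganglion also express, had 167 CPM in Nf2 and 168 CPM in DKO mice. The keratins Krt8, Krt18 and Krt19 had 9 to 430, 1 to 189 and 1 to 71 counts per library, and the junction gene Cldn4 had 1 to 63. Their log2 fold changes were -0.94, -0.81, 1.32 and -0.69, with edgeR adjusted p values of 0.394, 0.533, 0.189 and 0.572, so that Krt19 had the sign of Spint1 and the other 3 the opposite sign. The summed level of the 9 markers was 166 to 212 CPM in the Nf2 group and 154 to 205 CPM in the DKO group. Meningeal markers summed to 44.9 to 256 CPM in the Nf2 group and 121 to 1449 CPM in the DKO group. Of these markers, 7 of 7 had a positive log2 fold change, 0 passed the edgeR threshold and 5 had an unadjusted p under 0.05. The part of either list in the Spint1 difference between the genotypes was not tested.

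Spint2 (ENSMUSG00000074227, chr7:29256323-29281912, minus strand), the second inhibitor, had 4.41, 5.26 and 7.61 CPM in the Nf2 group and 5.81, 7.57 and 10.5 CPM in the DKO group. All 6 DKO mice were above the Nf2 mean, and 3 Nf2 mice lay within the DKO range. The fitted log2 fold change was 0.45 ± 0.18 (SE; edgeR adjusted p of 0.250). The ratio of Spint1 to Spint2 in TPM was 0.121 to 1.23 in the Nf2 group and 0.315 to 2.77 in the DKO group, with medians of 0.346 and 1.04.

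By labelled sex, none of the 9 genes passed the threshold of a sex difference, which 0.0164% of all genes passed, or of an interaction of genotype and sex, which 0.0109% passed. At an unadjusted p under 0.05 in edgeR were 0 of 9 genes for sex, beside 2.91% of all genes, and 1 of 9, Spint1, for the interaction, beside 4.78% of all genes. Without mouse 702 Spint1 and Met, 2 of 9, were under it for the interaction. The largest interaction term of the 9 was that of Spint1, which had means of 0.883 CPM in female and 1.90 CPM in male Nf2 mice, and of 8.74 CPM in female and 2.93 CPM in male DKO mice (n = 3 each). Its interaction of -2.73 on the log2 scale had an edgeR adjusted p of 0.920, and without mouse 702 it was -2.90 with 0.772. The DKO females were mice 885, 886 and 887 and the DKO males were mice 914, 915 and 917. The Nf2 mice labelled female were 918, 1048 and 1049, and those labelled male were 649, 702 and 884. In both genotypes labelled sex cannot be told apart from any difference between these runs of mouse numbers. For Met the means were 87.3 and 82.6 CPM in female and male Nf2 mice and 31.1 and 41.6 CPM in female and male DKO mice. The male Nf2 mean includes mouse 702, which had 117 CPM of Met, where mice 649 and 884 had 53.7 and 76.9 CPM. The interaction of Met was 0.45 with an edgeR adjusted p of 0.920, and 0.80 with 0.772 without mouse 702.

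The genes whose levels followed Met most closely over the 12 mice were, in order, Lhfp, Pigt, Chrdl1, Itga8 and Il17rc, with Pearson r of log2(CPM + 4) from 0.96 down to 0.95. Chrdl1 encodes a secreted antagonist of bone morphogenetic proteins and Itga8 an integrin chain. All 5 were themselves past the threshold and lower in DKO mice, so that the genotype difference is part of these r. After the genotype mean was subtracted the closest genes were Ddx6, Prkd1, Lipg, Mmp28 and Asap2, with r of 0.94 to 0.92, and none of these was past the threshold. Of the 20 genes closest in that way, 0 were on chromosome 6, the chromosome of Met. These r describe 12 libraries that share the depth and composition of their tissue.

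Among the genes closest to Spint1 several lay on its own chromosome. Over the 12 mice they were Haus2 (r of 0.97), Eif3j1 (0.96), Ppip5k1 (0.95), Sord (0.94) and Coa4 (0.91). Of these 5, Coa4 is on chromosome 7 and the other 4 are on chromosome 2, at 1.37, 2.79, 2.07 and 3.00 Mb from Spint1. After the genotype mean was subtracted, 5 of 5 were on chromosome 2, namely Haus2 (0.96), Eif3j1 (0.95), Cd59a (0.95), Ppip5k1 (0.91) and Mfap1b (0.91), where Cd59a lay 15.1 Mb on the other side. Of the 20 closest genes, 10 were on chromosome 2 over the 12 mice and 8 after subtraction, and this chromosome held 7.87% of the 14190 genes considered. Haus2 encodes a subunit of the augmin complex of the mitotic spindle, Sord sorbitol dehydrogenase and Cd59a an inhibitor of complement, and none of them belongs to HGF signalling.

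The values by mouse show what these r describe. In the DKO mice 887, 885, 915, 886, 914 and 917, Spint1 had 11.4, 9.75, 5.23, 5.07, 1.79 and 1.77 CPM, in that order. Haus2 had 34.8, 33.7, 29.1, 29.0, 25.0 and 22.7 CPM in the same mice. Both genes therefore had the same order in the 6 DKO mice. Among Nf2 mice, both were highest in mouse 649, at 3.36 CPM for Spint1 and 26.7 CPM for Haus2, and the other 5 had 0.523 to 1.43 CPM of Spint1 and 23.2 to 24.8 CPM of Haus2. Cd59a followed in the same way, with 237, 223, 163, 132, 94.7 and 72.0 CPM in the 6 DKO mice in that order, and with 191 CPM in mouse 649 and 86.1 to 103 CPM in the other Nf2 mice. In all 3 genes mouse 649 lay above the other 5 Nf2 mice and within the DKO range. For Haus2 and Cd59a the other 5 Nf2 mice lay within the DKO range too, and for Spint1 they lay below it.

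**Figure D4:**
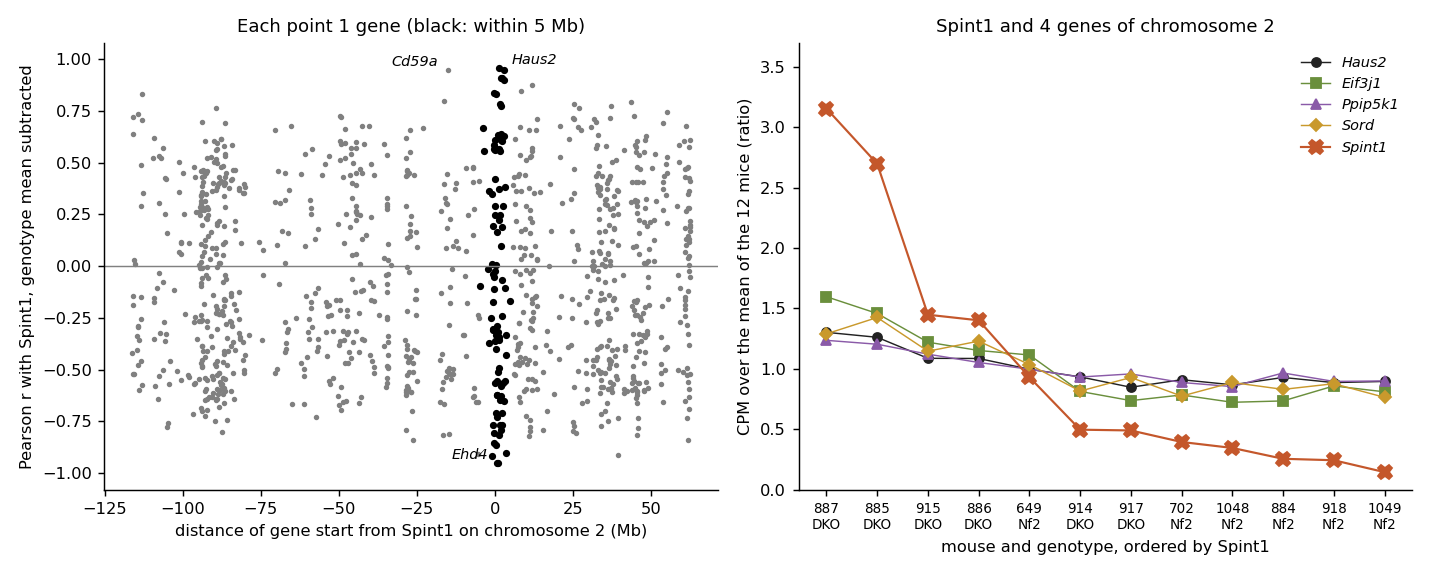
On the left, Pearson r with Spint1 of each gene on chromosome 2 after the genotype mean was subtracted, against its distance from Spint1 in Mb, with genes within 5 Mb in black; on the right, Spint1 and 4 genes of chromosome 2 in the 12 mice ordered by Spint1, as CPM over the mean of the 12 mice. Within 5 Mb, 15 of 91 genes have an r of at least 0.8 in size, and on the right all 4 genes are highest in the DKO mice 887 and 885.

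Within 5 Mb of Spint1, a distance chosen after the values were seen, 15 of 91 genes (16.5%) had an r of at least 0.8 in size after the genotype mean was subtracted, 7 positive and 8 negative. On the rest of chromosome 2 this held for 14 of 1026 genes (1.36%), and on other chromosomes for 102 of 13073 (0.78%). For Met the same counts were 1 of 20 genes within 5 Mb and 492 of 13481 genes on other chromosomes (3.65%). Ehd4, an endocytic protein gene 0.852 Mb from Spint1 that was picked after its values were seen, had the lowest r over the 12 mice, -0.96, and had 80.6 CPM in mouse 887 and 126 CPM in mouse 917, the DKO mice with the highest and the lowest Spint1. Eif3j1 has a near-identical copy, Eif3j2, on another chromosome, so that the division of reads between this pair is uncertain. Over the 12 mice the r with Spint1 was 0.96 for Eif3j1 and -0.96 for Eif3j2. Leaving out each mouse in turn left the r of Haus2 between 0.94 and 0.97 and that of Cd59a between 0.93 and 0.96 after subtraction of the genotype mean. The lowest r was 0.93 for Eif3j1, 0.88 for Ppip5k1 and Mfap1b, 0.87 for Sord and 0.81 for Coa4. Without mice 649 and 887 together r was 0.94 for Haus2 and Cd59a, 0.86 for Ppip5k1 and 0.76 for Coa4. These genes were picked for a high r in the same 12 mice, so that these fits are no independent test of the relation.

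The genes beside Spint1 were also compared between the genotypes. Of the 16 genes tested within 300 kb, 0 passed the edgeR threshold, 1 had an unadjusted p under 0.05, and their log2 fold changes ran from -0.49 to 0.17. Within 5 Mb, 2 of 109 genes (1.83%) passed, beside 0.94% of all genes tested. The genotypes of the mice along this stretch of chromosome 2 were not analysed here, and its part in the Spint1 difference was not tested.

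Beside Met, 1 of the 6 genes tested within 300 kb passed the threshold, which 0.94% of all genes tested passed. Within 5 Mb the same gene was the only 1 of 29 (3.45%) to pass. It was Cav1 (chr6:17306335-17341452), which encodes the main protein of caveolae and rose from 60.7 to 78.1 CPM, a log2 fold change of 0.34 ± 0.07 (SE; edgeR adjusted p of 0.0270). Its direction was opposite to that of Met. The call was lost without mouse 702, 884, 1049, 914 or 917, with edgeR adjusted p values up to 0.0709 and log2 fold changes of 0.31 to 0.36 over the 12 such fits.

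The promoters of Met and Spint1 are shown because these genes had the lowest and the highest log2 fold change of the set. The sequences are from RefSeq on GRCm38.p6, on the plus strand. For Met the 93 bases before the annotated start of the gene, chr6:17463707-17463799, and a stretch just inside it, chr6:17463893-17463919, are given, and for Spint1 the 250 bases before the start of transcription, chr2:119237110-119237359. Capitals mark GC boxes (GGGCGG on either strand) and, in the second stretch of Met, an AP-1 motif (TGANTCA).
Met upstream: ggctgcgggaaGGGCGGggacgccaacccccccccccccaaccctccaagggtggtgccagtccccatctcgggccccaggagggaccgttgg
Met AP-1 motif: gttgcccggcTGAGTCAcgggccgggc
Spint1 upstream: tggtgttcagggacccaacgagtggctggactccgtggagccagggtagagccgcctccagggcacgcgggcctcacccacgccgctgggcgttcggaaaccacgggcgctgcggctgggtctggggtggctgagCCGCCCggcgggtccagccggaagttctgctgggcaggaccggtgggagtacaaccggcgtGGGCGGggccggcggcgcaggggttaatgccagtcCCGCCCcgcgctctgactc
Both promoters were rich in G and C, 74.0% in Met and 72.8% in Spint1 over 250 bases, beside a median of 52.4% over 32851 promoters. Each held 3 GC boxes, of which 1 of those of Met lies in the stretches shown, and such a box was found in 32.7% of all promoters. The AP-1 motif, present in the Met window and not in that of Spint1, was held by 6.75% of all promoters. An E-box (CACGTG, 6.02% of all promoters) also lay in the Met window, and the TEAD motif (GGAATG, 12.6% of all promoters) lay in neither. A match of letters does not show that a factor binds there.

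Beyond the 10 genes, 76 genes in 6 lists cover the rest of the pathway, and 65 of them were tested. Dusp6 alone passed the threshold, and it was lower in DKO mice. The median log2 fold change of the 65 genes was -0.03, and 13 of them had an unadjusted p under 0.05, beside 14.9% of all genes tested.

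Dusp6, a phosphatase of ERK that is itself induced by ERK signalling, had 57.9 to 86.1 CPM in the Nf2 group and 39.6 to 53.5 CPM in the DKO group. The genotypes did not overlap. It fell from 69.4 ± 10.9 to 47.2 ± 5.45 CPM (SD, n = 6), a log2 fold change of -0.58 ± 0.11 (SE; edgeR adjusted p of 0.0286). Of the 12 fits that left out 1 mouse, 6 kept the call, and it was lost without mouse 702, 918, 885, 886, 914 or 917, with edgeR adjusted p values up to 0.0750 and log2 fold changes of -0.63 to -0.50. The list of ERK output genes to which it belongs had 10 genes tested, 1 past the threshold and a median of -0.09. At an unadjusted p under 0.05 were 3 of the 10, all lower in DKO mice, namely Dusp6, Epha2 at -0.51 (edgeR adjusted p of 0.106) and Spry2 at -0.23 (edgeR adjusted p of 0.325), the last pair named after their values were seen.

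The other 5 lists had 0 genes past the edgeR threshold, and in the order given below 0, 1, 2, 3 and 4 of their genes had an unadjusted p under 0.05. The first list held 10 genes of other HGF-activating proteases and of the proteases and inactive precursors around them, such as thrombin and plasminogen. Of these 10, 2 had enough counts to be tested, the membrane proteases Hpn at a log2 fold change of -0.12 and Tmprss6 at 0.05. Of 8 plasminogen receptors and serpins tested, with a median of -0.01, the smallest p values belonged to Serpini1, the inhibitor neuroserpin (0.25), the urokinase receptor Plaur (-0.24) and S100a10 (0.14). Their edgeR adjusted p values were 0.295, 0.521 and 0.668.

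Of 11 MET co-receptors and membrane partners, all tested, the median was 0.03, and Nrp1, a co-receptor of semaphorins and growth factors, had a log2 fold change of 0.23 with an edgeR adjusted p of 0.239. The semaphorin receptor Plxnb1 was at 0.17 and the tetraspanin Cd151 at -0.09. Of 20 adaptors and signal relays, with a median of -0.03, the kinases Akt1 (-0.14), Src (-0.24) and Map2k2 (-0.15) had the smallest p values, and the lowest edgeR adjusted p was 0.159. Of 14 negative regulators, with a median of -0.03, the lipid phosphatase Inpp5d was at -0.40, the ubiquitin ligase Cbl, which marks MET for degradation, at 0.28 and the endothelial phosphatase Ptprb at 0.60, with edgeR adjusted p values of 0.209 to 0.223. Neither direction was shared within these lists, in which 6 of 11, 9 of 20 and 6 of 14 genes had a positive log2 fold change.

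**Figure D5:**
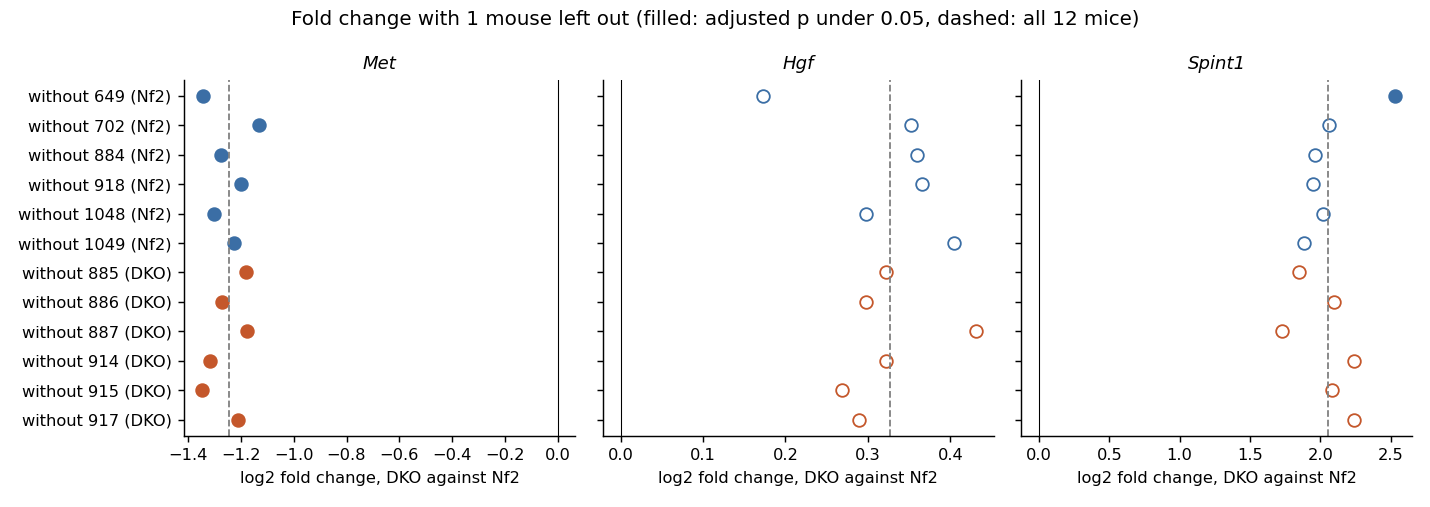
Log2 fold change of DKO against Nf2 mice for Met, Hgf and Spint1 with each of the 12 mice left out in turn, filled where the edgeR adjusted p is under 0.05, with a dashed line at the value of all 12 mice. Met stays between -1.35 and -1.13 and is filled throughout, whereas Spint1 runs from 1.73 to 2.53 and is filled only without mouse 649.

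Other cells of the ganglion can carry these genes, and their markers are given beside them. Of 18 marker lists, 1 gene passed the threshold, which 0.94% of all genes tested passed. It was C1qb, 1 of the 10 macrophage markers tested, which fell from 37.0 to 22.9 CPM. Its log2 fold change was -0.71 with an edgeR adjusted p of 0.0138, past the threshold in 12 of 12 fits that left out 1 mouse. Of the 10 macrophage markers, 10 had a negative log2 fold change, with a median of -0.39. An unadjusted edgeR p under 0.05 was found for 6 of the 10, beside 14.9% of all genes tested. The macrophage markers had a summed level of 224 to 338 CPM in the Nf2 group and 199 to 253 CPM in the DKO group. Fibroblast markers had a median of 0.19 and skeletal muscle markers of -2.18, the last with summed levels of 8.70 to 756 CPM in the Nf2 group and 14.1 to 240 CPM in the DKO group. Of the 6 skeletal muscle markers tested, 6 had a negative log2 fold change and 5 an unadjusted edgeR p under 0.05. No marker was at 0 in every mouse, and the part of these cells in the Met difference was not tested.

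Relations between the genes and the marker lists were examined within each genotype (n = 6), as 16 correlations. At an unadjusted p under 0.05 by exact permutation were 4 of them, and 0 after adjustment over the 16. The fibroblast list, whose cells are a known source of HGF, had a Pearson r of 0.92 with Hgf in Nf2 mice (exact permutation p of 0.00417, adjusted 0.0667; Spearman rho of 0.94, p of 0.0167, adjusted 0.267). In DKO mice r was 0.97 (exact permutation p of 0.0222, adjusted 0.178; rho of 0.77, p of 0.103, adjusted 0.483). Without the 2 mice farthest from the median of the list, r fell to 0.55 in Nf2 and 0.22 in DKO mice. These r come from fewer mice over a narrower range of the list, which can itself lower r. Between Hgf and Met in Nf2 mice r was 0.81 (exact permutation p of 0.0417, adjusted 0.194; rho of 0.60, p of 0.242, adjusted 0.483), and without the 2 farthest mice, 1048 and 649, it was -0.24. The macrophage list had an r with Hgf of -0.04 in Nf2 mice (exact permutation p of 0.944) and 0.16 in DKO mice (0.819). For the epithelial list and Spint1 r was -0.75 in Nf2 mice (exact permutation p of 0.0486, adjusted 0.194). In DKO mice that r was 0.62 (exact permutation p of 0.167, adjusted 0.331).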

How the data were processed

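RNA had been prepared and sequenced after poly(A) selection from DRG of 12 mice. Per the labels, reads were trimmed with Trimmomatic 0.36, aligned with STAR 2.5.2b to GRCm38 and counted with featureCounts of Subread 1.5.2; how strand and multi-mapping reads were handled is not given in the sources used here. The authors deposited raw counts, whole numbers of reads per Ensembl gene for each mouse that had not been normalized; 13672 of the 49315 genes had no count. Total counts set the counting precision, and no interval of counting error alone was used. No pair of libraries agreed within sampling noise, with a chi-square per gene of 10.7 to 92.2 over 66 pairs. Mice were separate animals, and p-values measure the spread between them.

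CPM were computed on library totals, and TPM on the summed exon length of GENCODE M21, which held 99.47% of the genes. Genotypes were compared in R 4.3.3 with edgeR 4.0.16 (filterByExpr, TMM factors, quasi-likelihood F test, all 12 mice, no covariate) and Benjamini-Hochberg adjustment over 18295 genes with a threshold of 0.05. Each gene's log2(CPM + 4), the scale of the study, was also compared by a two-sided exact permutation test. Sex and its interaction with genotype were tested by label in edgeR. Alternatives were DESeq2 1.42.0, limma 3.58.1 voom with quality weights, other scaling factors, filters, pseudocounts and subsets of mice, and each mouse left out in turn; leaving out mice 649 and 887 together was added after the data had been seen. Python 3.11.15, pandas 2.3.3, scipy 1.17.1 and matplotlib 3.10.9 served for tables, permutations and plots. The procedure was tested on simulated counts.

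The genes and lists were chosen with earlier results of these data known. Named were the 10 genes, Ptk2 and Nf2, each pathway list's genes past the threshold or otherwise up to 3 with the smallest p, markers past the threshold, called genes within 300 kb of Met or Spint1, and for each of these the 5 genes of at least 1 CPM with the highest r. Haus2, Cd59a and Eif3j1 were shown by mouse, and Ehd4, the 5 Mb distance and the r of 0.8 were chosen, after the values were seen. Epithelial markers were named after their values were seen. Some marker genes are not reported here.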

Additional observations from a re-analysis of the deposited data

Results flagged for a closer look

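Single mice were set against the others of their genotype on the log2(CPM + 4) scale by the gap to the nearest mouse over the whole range, with the 95% critical value of Dixon for 6 mice. Of 20 groups of 6 mice (10 genes in each genotype), 5 held such a mouse, where chance gives about 1 in 20, or 1.0. Hgf was lowest in the Nf2 mouse 649, at 2.93 with the nearest at 3.58, and in the DKO mouse 887, at 3.35 with the nearest at 3.87. Spint1 was highest in mouse 649, at 2.88 with the nearest at 2.44. Both mice also had the lowest Met, the highest Spint1 and the highest mitochondrial share of their genotype. Mst1 was lowest in the DKO mouse 914, at 2.08 with the nearest at 2.32, and Plat was lowest in the Nf2 mouse 1048, at 6.51 with the nearest at 6.73. The part of RNA quality or tissue composition in these values was not tested.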

How the results depend on the processing

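The genes past the threshold numbered 172 by edgeR, 831 by DESeq2 and 521 by limma voom, 2 among mice labelled male, 57 among mice labelled female, 314 without mice 649 and 887, and 81 to 217 with 1 mouse left out (under 115 without 702, 884, 918, 1049, 885, 914 or 917, at 114, 107, 81, 98, 95, 110 and 87). Of the 10 genes, 1 passed by edgeR, 3 by DESeq2, 2 by voom, 0 among males, 2 among females, 2 without mice 649 and 887 and 1 to 2 with 1 mouse left out. Of the pathway lists, 1 gene passed by edgeR, 3 by DESeq2, 2 by voom, 0 among males or females, and 0 to 2 with 1 mouse left out. The log2 fold change of Met missed the threshold among males (-1.03). That of Spint1 passed it by DESeq2 (2.05), among females (3.30) and without mice 649 and 887 (2.20), was 0.58 among males, and was 1.73 to 2.53 with 1 mouse left out. Reversed signs were those of St14 by voom (0.0056), among females (0.24) and with 1 mouse left out (-0.12 to 0.092); of Mst1r among females (-0.011) and with 1 mouse left out (-0.025 to 0.051); of Hpn among females (0.15) and with 1 mouse left out (-0.31 to 0.0073, the last without 649); of Tmprss6 by voom (-0.055), without mice 649 and 887 (-0.086) and with 1 mouse left out (-0.074 to 0.12); of Plaur among females (0.051) and of S100a10 among males (-0.0064). The log2(CPM + 4) difference ran from -0.019 to 0.020 for St14 and from -0.0038 to 0.044 for Mst1r with 1 mouse left out. Without mouse 702 the sex difference of Mst1r was 0.015 and its interaction -0.0060. Without the 2 farthest mice, 7 of 16 correlations reversed: Hgf with Met at -0.24 (Nf2) and -0.17 (DKO), Spint1, macrophages and repair Schwann cells with Met in Nf2 at 0.32, -0.13 and -0.54, and epithelial cells with Spint1 at 0.32 (Nf2) and -0.69 (DKO). The cause of these changes was not tested beyond the smaller number of mice. The exact permutation p of Hgf without mouse 887, Mst1 without 702 and Hgfac without 884 fell under 0.05. Over all alternatives 599 fold changes kept their direction and side of the threshold, 18 lost and 8 gained the call, and 17 reversed. Hgfac, Mst1 and St14 had at most 49 counts per library, which limits what could be detected. The labels give no pairing of mice between the genotypes, and no paired analysis was made.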
